A study of Mus musculus with 8 samples.

Results

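The ciliary transition zone is the short segment at the base of a cilium, where links between the microtubule doublets and the membrane form a gate for proteins that enter or leave. Its subunits work in modules: the tectonic and B9-domain proteins sit with several membrane proteins in one complex, and large coiled-coil scaffolds hold that complex to the microtubules. Inherited loss of these proteins causes Meckel and Joubert syndromes, and in the skin the primary cilium of keratinocytes and hair germ cells serves hedgehog signalling. The genes described here are 10 transition zone genes, B9d1, B9d2, Mks1, Tctn1, Tctn2, Tctn3, Cc2d2a, Tmem67, Rpgrip1l and Cep290, chosen by symbol from the 23432 gene symbols that each library lists. All 10 had a row in every library, and all 10 passed the filter on low counts in both experiments.

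Polyadenylated RNA of mouse skin epithelium was sequenced in 8 libraries, 2 in each of 4 groups. At E16.5 (embryonic day), cells carrying the K14-H2BGFP reporter were sorted from back skin of controls and of MOF cKO embryos (MOFfl/fl/K14Cre), in which a Cre under the keratin 14 promoter deletes Mof (Kat8), the acetyltransferase of histone H4 lysine 16. At P0.5 (postnatal day), the whole epidermis was taken from controls and from Kansl1 cKO pups (Kansl1fl/fl/K14Cre), in which the same Cre removes an exon of Kansl1, a subunit of the NSL complex that contains MOF. The labels name the control animals only as controls, and the study's text on MOF describes its controls as wildtype or heterozygous siblings. Mice were of mixed C57Bl/6J and CD-1 background. The methods speak of pairs of samples with littermate controls without saying which libraries pair. The main tests therefore treated the libraries as unpaired. Their p-values set a difference between groups against the spread between these libraries within groups. Non-epithelial cells lack the Cre, and the sorted fraction and the epidermal sheet can hold some of them.

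Counts on genes ranged from 22484018 to 27561688 at E16.5 and from 9108709 to 19774643 at P0.5. A single count stood for between 0.0326 and 0.0502 CPM (counts scaled to a common library size) at E16.5, and for between 0.0484 and 0.115 CPM at P0.5. Kat8 was at 14.4 and 14.7 CPM in the E16.5 controls and at 12.4 and 13.9 CPM in MOF cKO (log2 fold change -0.14, edgeR adjusted p = 0.554). Kansl1 was at 40.7 and 48.2 CPM in the P0.5 controls and at 31.4 and 30.6 CPM in Kansl1 cKO (log2 fold change -0.52, edgeR adjusted p = 0.242). Counts over a whole gene do not resolve a deleted exon, so neither value measures the deletion itself. Xist reached 1518 CPM in E16.5 control replicate 1 against 9.99 to 12.0 CPM in the 3 remaining E16.5 libraries. At P0.5 it stood at 1.23 CPM in control replicate 2 against 371 to 427 CPM elsewhere, so the sexes were not matched across genotypes. The keratin-rich basal marker list summed to between 31585 and 38824 CPM in every E16.5 library and to between 17808 and 19753 CPM at P0.5. Most of each sum came from Krt5 and Krt14, the keratin pair of basal epithelium. Markers of multiciliated cells, another source of ciliary transcripts, summed to at most 2.45 CPM in any library, and Hydin, a motile cilium gene, had 0 counts in all 8.

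The promoters of the members are shown because many ciliary genes carry an X-box, the element to which RFX transcription factors bind. RefSeq (GRCm38.p6, the same build as mm10) gave a window from 250 bases before to 50 after the annotated start for 9 of the 10 members; Tmem67 had no entry. The windows were searched on both strands for the 14-letter X-box consensus, in which 11 letters are scored, and separately for its left arm GTTGCC or the reverse complement GGCAAC, which overlaps that consensus. Positions are counted from 1 at the start site, with negative numbers before it. An exact consensus match lay in the windows of 3 members, B9d2, Tctn1 and Tctn2, and a match with at most 1 mismatch in 4, the fourth being Mks1. Among all 27025 genes with a window, 0.796% held an exact match and 5.32% a match with at most 1 mismatch. B9d1 and Rpgrip1l matched with 2 mismatches, and 31.2% of all genes held a match with at most 2. The left arm alone was present in 6 members and in 14.1% of all genes. The sequences below are 5′ to 3′ on the strand of the gene, with the 14 matched letters in capitals.
B9d2, exact, chr7:25680788-25680817, plus strand, bases 17 to 30: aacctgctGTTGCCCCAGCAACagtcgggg
Tctn1, exact, chr5:122264411-122264432, minus strand, bases 37 to 50, where the window ends: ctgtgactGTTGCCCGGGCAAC
Tctn2, exact on the other strand, chr5:124598679-124598708, plus strand, bases -62 to -49: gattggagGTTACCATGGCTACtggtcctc
Mks1, 1 mismatch, chr11:87853183-87853212, plus strand, bases -24 to -11: gcgtctccGTTGCCAGGGGAACgaggcacc
B9d1, 2 mismatches, chr11:61505130-61505159, plus strand, bases -6 to 8: taccgtctGTTTCCAAGACAACcgagagcc
Rpgrip1l, 2 mismatches, chr8:91313223-91313252, minus strand, bases -22 to -9: gcgccctgGGCGCTATAGCAACcggtagct
These are letter matches in a window and show no binding. Cc2d2a and Tctn3 had at best 3 mismatches and Cep290 4. In Tctn3 both arms of the consensus were present with a spacer of 1 base instead of 2, a variant that was looked for after the windows had been read and that 0.71% of all genes held.

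The question at E16.5 was how these genes stood in epithelium that lacks MOF. Each of the 10 was lower in both MOF cKO libraries than in both controls, a separation that 37.7% of all 13956 genes tested also showed. A gene was called where edgeR's quasi-likelihood test gave an adjusted p no higher than 0.01 and the fold exceeded 1.5. By this rule 7 of the 10 fell and none rose, against 9.59% of all genes that fell. The paper had already named transition zone genes among those that fell, and the members were chosen with earlier results known. The contrast with all genes is therefore a description and no independent support. Over all genes 1338 fell and 1395 rose, or 2743 and 769 when scaled by library size alone. The median log2 fold change was -1.78 for the members and -0.02 for all genes, and -2.09 and -0.32 on library size alone. Summed over the 10 genes, the level was 136 and 141 CPM in the controls and between 51.2 and 54.0 CPM in MOF cKO. In bulk libraries, fewer cells that express a gene and less RNA per cell cannot be told apart.

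**Figure D1:**
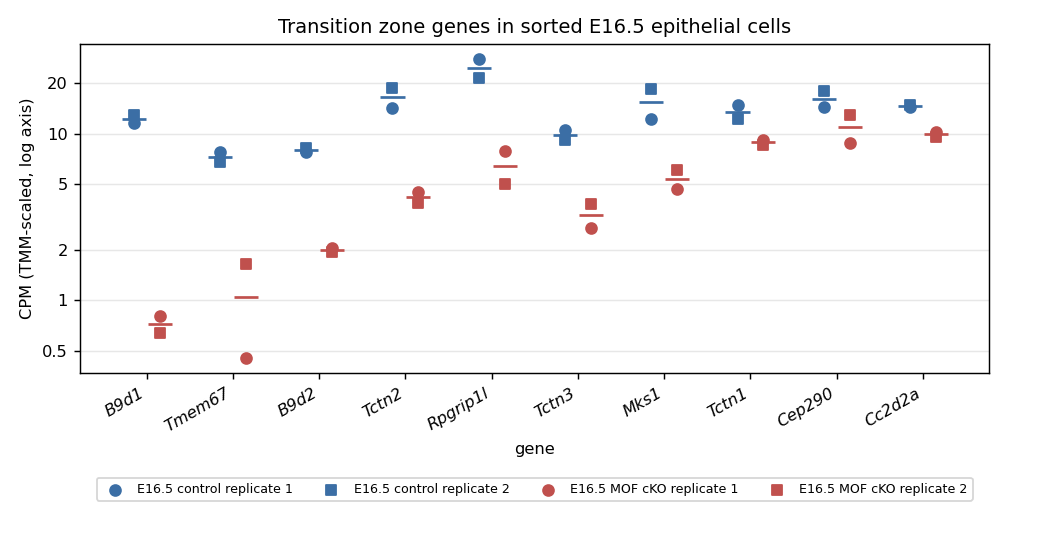
Level of each transition zone gene in the 4 E16.5 libraries, in TMM-scaled CPM on a log axis, with circles for replicate 1, squares for replicate 2 and lines for group means (n = 2). For every gene both MOF cKO points lie below both control points, with the widest gap for B9d1 (11.6 and 12.9 against 0.803 and 0.635 CPM).

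The B9-domain proteins B9d1, B9d2 and Mks1 form a complex of their own within the tectonic assembly, and all 3 of their genes fell. B9d1 (chr11:61505144-61512931, plus strand) had 356 and 358 counts in the controls and 16 and 15 in MOF cKO, or 11.6 and 12.9 against 0.803 and 0.635 CPM. Its level in MOF cKO was 5.87% of that in control, a log2 fold change of -4.09 (SE 0.328, 95% interval -4.86 to -3.32, edgeR adjusted p = 0.000402). B9d1 showed the largest fall of the 10, and 0.48% of all genes tested had a log2 fold change as low or lower. B9d2 (chr7:25680780-25686558, plus strand) was at 7.79 and 8.19 CPM in the controls and at 2.06 and 1.95 CPM in MOF cKO, and its log2 fold change was -1.99 (SE 0.315, edgeR adjusted p = 0.00305). The 2 libraries of each group lay close together for B9d2, and the groups were far apart. Mks1 (chr11:87853215-87863803, plus strand) was at 12.3 and 18.5 CPM in the controls and at 4.67 and 6.06 CPM in MOF cKO (log2 fold change -1.51, SE 0.281, edgeR adjusted p = 0.00572). Its controls differed more from each other than those of the other B9 genes, and its call was lost without control replicate 2 (adjusted p = 0.0195) and without MOF cKO replicate 1 (adjusted p = 0.0124).

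The tectonics, named for the secreted Tctn1 and its membrane-bound relatives Tctn2 and Tctn3, did not all pass the test. Tctn2 (chr5:124598749-124627738, plus strand) was at 14.2 and 18.8 CPM in the controls and at 4.47 and 3.85 CPM in MOF cKO (log2 fold change -1.99, SE 0.247, edgeR adjusted p = 0.00125). Tctn3 (chr19:40596446-40612233, minus strand) went from 10.6 and 9.17 CPM to 2.71 and 3.77 CPM (log2 fold change -1.60, SE 0.299, edgeR adjusted p = 0.00587). The call of Tctn3 was lost without control replicate 1 (adjusted p = 0.0179), the library that stands apart by Xist, and without MOF cKO replicate 1 (adjusted p = 0.0102). Tctn1 (chr5:122237848-122264460, minus strand) was at 14.9 and 12.2 CPM in the controls and at 9.14 and 8.60 CPM in MOF cKO. The groups did not overlap, but the log2 fold change of -0.61 (SE 0.212, 95% interval -1.11 to -0.11, edgeR adjusted p = 0.0556) did not reach the threshold. Exons of Tctn1 overlap those of Hvcn1 on the other strand over 1574 bases, and the strand setting of the counting is not given in the sources used here, so reads of the pair may not have been told apart. Hvcn1, a proton channel gene, was at no more than 1.82 CPM in any E16.5 library.

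Tmem67 (chr4:12039355-12090020, minus strand) encodes meckelin, a membrane protein of the tectonic assembly. It had 237 and 186 counts in the controls and 9 and 39 in MOF cKO, or 7.73 and 6.71 against 0.452 and 1.65 CPM. The MOF cKO libraries differed more from each other than for any other called member on the log scale, yet both were far below the controls, and the log2 fold change was -2.75 (SE 0.562, 95% interval -4.07 to -1.43, edgeR adjusted p = 0.00823). The level left was 14.9% of control, and the log2 fold change was -3.99 without MOF cKO replicate 2 and -2.13 without MOF cKO replicate 1. Cc2d2a (chr5:43662346-43740972, plus strand), a coiled-coil and C2-domain protein of the same assembly, was at 14.5 and 14.8 CPM in the controls and at 10.2 and 9.57 CPM in MOF cKO. Its log2 fold change was -0.57 (SE 0.188, edgeR adjusted p = 0.0483), and it was not called.

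Rpgrip1l and Cep290 are scaffolds rather than membrane-module proteins: Rpgrip1l anchors other subunits at the base of the zone, and Cep290 takes part in the links from microtubule to membrane. Rpgrip1l (chr8:91217030-91313262, minus strand) was at 28.05 and 21.7 CPM in the controls, the highest CPM among the 10, and at 7.88 and 4.95 CPM in MOF cKO. It fell with a log2 fold change of -1.96 (SE 0.265, edgeR adjusted p = 0.00169). Cep290 (chr10:100487558-100574840, plus strand) was at 14.5 and 17.9 CPM in the controls and at 8.78 and 13.0 CPM in MOF cKO, so the groups came closest to each other here. The log2 fold change of Cep290 was -0.57 (SE 0.242, 95% interval -1.14 to -0.003, edgeR adjusted p = 0.101), which is not a call.

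**Figure D2:**
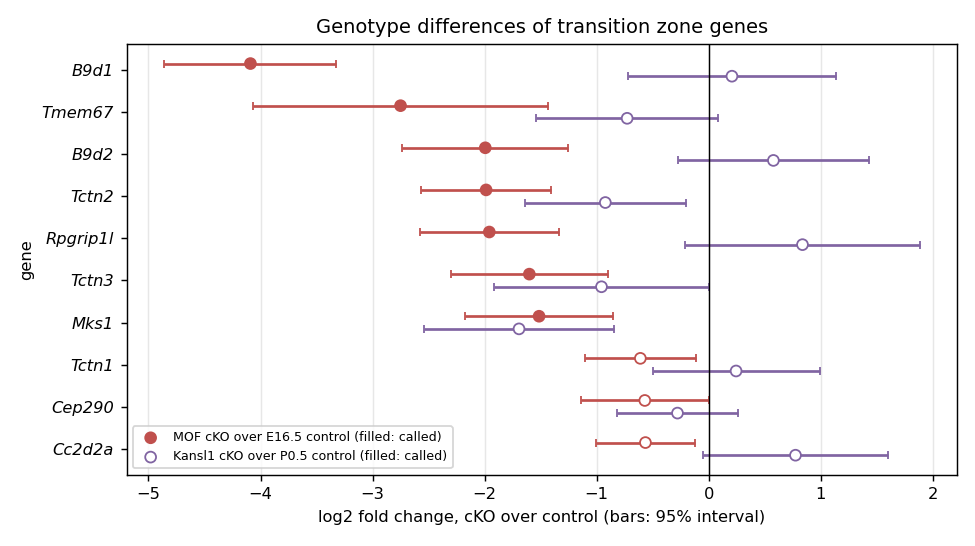
Log2 fold change of each gene, cKO over control, with its 95% interval, for MOF cKO at E16.5 (red) and Kansl1 cKO at P0.5 (purple), filled where the gene was called. In MOF cKO all 10 points lie left of 0 and 7 are filled, from Mks1 at -1.51 to B9d1 at -4.09. In Kansl1 cKO the points lie on both sides of 0 and none is filled.

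Other measures moved between the E16.5 genotypes as well, where 1395 of all 13956 genes tested were called up and 1338 down. The macrophage marker list summed to between 21.1 and 46.5 CPM in the controls and between 111 and 140 CPM in MOF cKO, and 8 of its 12 genes were called up. Of the 8 basal epidermal markers 1 was called, Krt15, a basal keratin that fell to 41.8% of control (log2 fold change -1.26, edgeR adjusted p = 0.000745). Trp63, the p63 lineage factor, had a log2 fold change of -0.57 (edgeR adjusted p = 0.00870) without exceeding the fold threshold. Of these 8 basal markers 6 were lower and 2 higher. The higher were Itgb4 (log2 fold change 0.45, edgeR adjusted p = 0.0109) and Krt14 (0.20, adjusted p = 0.183). Suprabasal epidermal markers such as Krt1 and Krt10 summed to between 3416 and 4227 CPM in the controls and between 9239 and 10127 CPM in MOF cKO, with 5 of 7 tested genes called up. The dermal fibroblast list summed to between 934 and 1568 CPM against between 1553 and 2169 CPM, and none of its 8 genes was called. The endothelial list summed to between 6.49 and 7.47 CPM against between 11.8 and 23.7 CPM, with 1 of 6 genes called up, Pecam1, and the melanocyte list to between 19.7 and 51.2 CPM against between 22.3 and 77.7 CPM. The multiciliated list summed to between 1.59 and 2.45 CPM against between 0.552 and 0.635 CPM. Of its 2 tested genes, 1 was lower and 1 higher. Ccdc39, a gene of motile cilia, had 51 and 26 counts in the controls and 0 in both MOF cKO libraries. Its control mean of 1.30 CPM made up much of the control sums. Tekt1 was higher in MOF cKO without being called (log2 fold change 0.81, edgeR adjusted p = 0.488). The part of these differences in the fall of the transition zone genes was not tested.

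Genes that begin close to a member on the opposite strand share its promoter region. Within 1000 bases, 4 members had such a partner with a row in the files. None of the 4 partners was called in MOF cKO, where 1338 of all 13956 genes tested were called down and 1395 up. With 4 genes, this count does not show that partners were spared. Fto, a nucleic acid demethylase gene that starts 263 bases from Rpgrip1l, was at 96.3 and 96.5 CPM in the controls and at 79.7 and 70.0 CPM in MOF cKO (log2 fold change -0.37, edgeR adjusted p = 0.0422). Rbm12b2, an RNA-binding protein gene, starts 581 bases from Tmem67 and overlaps its exons on the other strand by 289 bases. It was at 17.2 and 13.5 CPM in the controls and at 12.6 and 13.5 CPM in MOF cKO, with a log2 fold change of -0.23 (edgeR adjusted p = 0.389). Entpd1, an ectonucleotidase gene that starts 133 bases from Tctn3, was at 0.130 and 0.542 CPM in the controls and at 2.16 and 1.61 CPM in MOF cKO (log2 fold change 2.48, edgeR adjusted p = 0.0520). Tmtc3, which starts 208 bases from Cep290, was at 71.1 and 49.0 CPM in the controls and at 95.4 and 77.9 CPM in MOF cKO (log2 fold change 0.53, edgeR adjusted p = 0.0654). B9d1 has only the antisense gene B9d1os 85 bases away, which has no row in the files. Cep290 also shares 881 exonic bases with 4930430F08Rik on the other strand, which was at 5.87 and 6.82 CPM in the controls and at 11.8 and 5.25 CPM in MOF cKO. At P0.5 the means of 4930430F08Rik were 40.7 CPM in the controls and 42.7 CPM in Kansl1 cKO. Those of Cep290 were 10.2 and 8.44 CPM. Reads of this pair may not have been told apart, which bears on the Cep290 values at P0.5 and between the stages.

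The rest of the ciliary gate was followed in 3 further lists of 24 genes in all. Of these, 13 were called down in MOF cKO, where 9.59% of all genes fell, 0 were called up, and the median log2 fold change was -1.24. Among 14 other transition zone genes, 8 fell, among them Tmem231 (-2.69, edgeR adjusted p = 0.000757), Tmem237 (-2.59, adjusted p = 0.00593) and Rpgr (-1.85, adjusted p = 0.00161). Tmem231 and Tmem237 are membrane proteins of the gate, and Rpgr is a regulator at the zone that is mutated in retinitis pigmentosa. Tmem231 was at 19.9 and 23.8 CPM in the controls and at 2.51 and 4.19 CPM in MOF cKO. Tmem218, Tmem216, Ahi1 and Tmem107, named after their values were seen, were also called, with log2 fold changes between -1.79 and -1.13. Iqcb1, a partner of Cep290, was at -0.07.

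The inversin compartment lies just beyond the transition zone. In its list of 4 genes, 2 fell in MOF cKO, among them Invs, which encodes inversin (-2.18, edgeR adjusted p = 0.00404). Of 6 genes of the distal appendages, which dock the centriole to the membrane, 3 fell: Ttbk2, the kinase that starts cilium growth (-1.86, edgeR adjusted p = 0.000745), Cep164 (-1.27, adjusted p = 0.000602) and Cep89 (-0.83, adjusted p = 0.00761). Of 6 genes whose proteins enter the ciliary membrane through the gate, only the channel gene Pkd2 was called (-1.07, edgeR adjusted p = 0.00345), and Smo, the hedgehog transducer, had a log2 fold change of 0.02 (95% interval -0.22 to 0.26). Medians stepped from -1.78 in the members to -1.49, -1.15, -0.77 and -0.47 in these lists, in the order given, and the differences between lists were not tested.

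**Figure D3:**
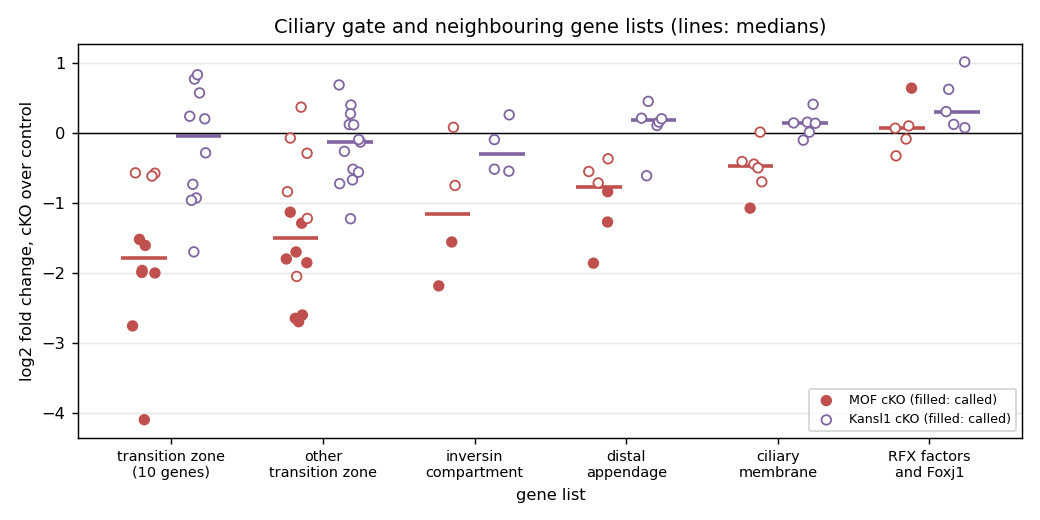
Log2 fold change, cKO over control, of the genes in 6 lists, with MOF cKO in red, Kansl1 cKO in purple, filled points for called genes and lines for list medians. In MOF cKO the median runs from -1.78 in the 10 transition zone genes to 0.07 in the list of RFX factors and Foxj1, and in Kansl1 cKO no point is filled.

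The RFX factors, whose consensus was searched for above, were measured in the same libraries. In MOF cKO 1 of the 5 tested genes of that list was called, Rfx1, which rose with a log2 fold change of 0.64 (edgeR adjusted p = 0.00970). Rfx3 was at 19.99 and 13.3 CPM in the controls and at 13.7 and 12.96 CPM in MOF cKO, and Rfx2 at 36.1 and 29.9 against 28.3 and 33.96 CPM. Both overlapped between genotypes. At P0.5, where no gene of the list was called, Rfx3 was at 4.58 and 4.91 CPM in the controls and at 10.3 and 9.01 CPM in Kansl1 cKO (edgeR adjusted p = 0.204). Rfx4, Rfx6 and Foxj1, the master regulator of motile cilia, did not pass the filter on low counts, and Foxj1 was at no more than 0.325 CPM in any E16.5 library.

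At P0.5 the question was whether loss of Kansl1 was accompanied by a change in the same genes. By edgeR's quasi-likelihood test 0 of the 10 were called, as were 0% of all 13031 genes tested, of which none had an adjusted p below 0.110. Before adjustment, at p under 0.05, 2 of the 10 were lower, Mks1 and Tctn2, and 0 higher, against 8.26% of all genes lower. DESeq2 called 0.506% of all genes lower at the same thresholds and none of the 10. In Kansl1 cKO, 5 members lay below both controls, 3 above both and 2 overlapped, where 22.7% of all genes lay below and 26% above. The summed level was between 56.0 and 86.2 CPM in the controls and between 66.0 and 82.6 CPM in Kansl1 cKO. The median log2 fold change was -0.04 over the members and 0.01 over all genes.

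**Figure D4:**
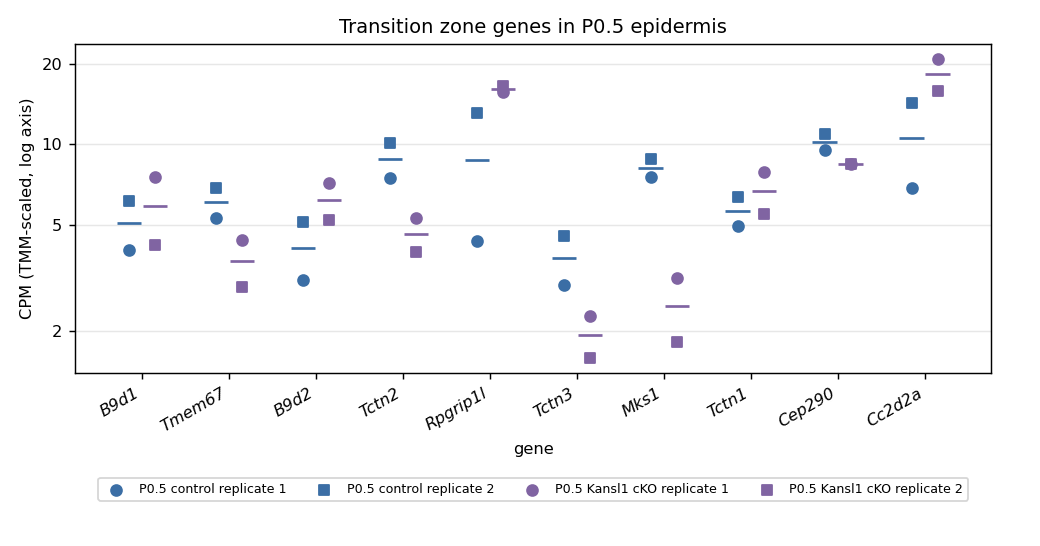
Level of each transition zone gene in the 4 P0.5 libraries, in TMM-scaled CPM on a log axis, with circles for replicate 1, squares for replicate 2 and lines for group means (n = 2). Mks1 shows the lowest Kansl1 cKO points relative to its controls (3.15 and 1.82 against 7.56 and 8.79 CPM), while the controls of Rpgrip1l lie far apart (4.35 and 13.1 CPM).

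Among the B9 genes, Mks1 was at 7.56 and 8.79 CPM in the P0.5 controls and at 3.15 and 1.82 CPM in Kansl1 cKO, 30.9% of control. The log2 fold change was -1.69 (SE 0.356, 95% interval -2.54 to -0.85, unadjusted p = 0.00221 and adjusted p = 0.185 from edgeR), and the interval lay wholly below 0. Those Mks1 values rested on 66, 136, 65 and 23 counts. B9d1 was at 4.01 and 6.14 CPM in the controls and at 7.56 and 4.19 CPM in Kansl1 cKO, overlapping groups with a log2 fold change of 0.21 (95% interval -0.72 to 1.13). B9d2 lay above, at 3.09 and 5.11 against 7.17 and 5.22 CPM (log2 fold change 0.58, 95% interval -0.28 to 1.43).

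For the tectonics, Tctn2 was at 7.45 and 10.1 CPM in the controls and at 5.28 and 3.95 CPM in Kansl1 cKO (log2 fold change -0.92, 95% interval -1.64 to -0.21, edgeR adjusted p = 0.246). Tctn3 was at 2.98 and 4.53 against 2.28 and 1.58 CPM, a log2 fold change of -0.96 with a 95% interval from -1.92 to 0.003. Both lay below their controls without passing the test over all genes. Tctn1 overlapped, at 4.93 and 6.34 against 7.90 and 5.45 CPM. Hvcn1, whose exons overlap those of Tctn1, averaged 1.63 CPM in the controls and 3.10 CPM in Kansl1 cKO.

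Tmem67 was at 5.27 and 6.85 CPM in the P0.5 controls and at 4.36 and 2.92 CPM in Kansl1 cKO (log2 fold change -0.73, 95% interval -1.54 to 0.08). Cep290 differed less, at 9.51 and 10.9 against 8.43 and 8.46 CPM (log2 fold change -0.28, 95% interval -0.82 to 0.26). Cc2d2a and Rpgrip1l were on the other side, with log2 fold changes of 0.77 (95% interval -0.05 to 1.60) and 0.84 (95% interval -0.21 to 1.88). For both, control replicate 1, the library with the fewest counts, was far below control replicate 2: Cc2d2a was at 6.87 and 14.3 CPM and Rpgrip1l at 4.35 and 13.1 CPM in the controls, against 20.9 and 15.9 CPM and 15.6 and 16.52 CPM in Kansl1 cKO.

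None of the other ciliary lists had a called gene in Kansl1 cKO, where 0 of all 13031 genes tested were called. The 13 other transition zone genes tested had a median of -0.13, and Tmem237 was at 4.81 and 6.72 CPM in the controls and at 2.66 and 2.29 CPM in Kansl1 cKO (edgeR adjusted p = 0.218). Rpgrip1 did not pass the filter there. The partners Entpd1, Rbm12b2, Fto and Tmtc3 had log2 fold changes between 0.20 and 0.58. Markers of other cells differed between these genotypes too. Melanocyte markers summed to between 474 and 532 CPM in the controls and between 1027 and 1143 CPM in Kansl1 cKO. Fibroblast markers summed to between 1122 and 1784 against between 753 and 941 CPM. Macrophage markers summed to between 203 and 237 against between 297 and 324 CPM, and endothelial markers to between 4.40 and 8.14 against between 3.004 and 3.49 CPM. All 7 melanocyte markers were higher in Kansl1 cKO. No gene of these 4 lists was called, and 0% of all genes were, so the absence of calls does not show that the lists were unchanged. Their part in the values of the members was not tested.

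The MOF and Kansl1 effects were compared directly in one fit over all 8 libraries, with 0.01 as the highest adjusted p for a call, a limit that 2.92% of 14565 genes passed. Of the 10 members, B9d1 was called, with an MOF effect lower than the Kansl1 effect by a log2 difference of -4.32 (SE 0.538, 95% interval -5.54 to -3.11, edgeR adjusted p = 0.00353). That call was lost with the replicate number as a block (adjusted p = 0.0285) and in 4 of the 8 fits without 1 library, where the adjusted p was between 0.0118 and 0.0121. Rpgrip1l (-2.82, edgeR adjusted p = 0.0179) and B9d2 (-2.60, edgeR adjusted p = 0.0110) missed the threshold. For Mks1, the gene with the lowest fold change at P0.5, the difference was 0.14 with a 95% interval from -0.90 to 1.19. The effects on Mks1 are not shown to be equal by this. That interval is also no limit of detection, since the larger differences of Rpgrip1l and B9d2 were not called. The paper names different sequencing instruments for the MOF and the Kansl1 libraries. The deleted gene cannot be told apart from stage, isolation and instrument in this contrast. By Xist, the sexes were not matched across its groups either.

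Per kilobase of annotated exons and on one scale over all 8 libraries, the E16.5 controls ordered the members from B9d1 (7.10 ± 0.573 CPM per kb, SD, n = 2) and B9d2 (5.07 ± 0.205) through Mks1 (3.51 ± 1.02), Tctn3 (2.78 ± 0.264), Cc2d2a (1.98 ± 0.0440), Tctn2 (1.83 ± 0.366), Rpgrip1l (1.56 ± 0.276), Tctn1 (1.504 ± 0.208) and Cep290 (1.29 ± 0.199) to Tmem67 (0.859 ± 0.0811). From Cc2d2a to Tctn1, neighbours in this order differed by no more than the larger of their SDs, and so did Mks1 and Tctn3. The order depends on exon lengths that pool all annotated transcripts of a gene, from 1454 bases for B9d2 to 14688 for Rpgrip1l. In MOF cKO the order was not the same, since B9d1, the highest in control, was at 0.416 ± 0.0690 CPM per kb there, beside Rpgrip1l at 0.403 ± 0.130 and Tctn2 at 0.461 ± 0.0484. Only Tmem67 was lower in MOF cKO, at 0.125 ± 0.101 CPM per kb, than Rpgrip1l and B9d1.

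Across the 4 groups, the E16.5 controls held the highest mean for 9 members and Kansl1 cKO for Cc2d2a. The lowest mean was in MOF cKO for 6 members, in Kansl1 cKO for Cep290, Mks1 and Tctn3, and in the P0.5 controls for Tctn1. Between the controls, Tctn1 was lower at P0.5 than at E16.5 (log2 difference -1.03, edgeR adjusted p = 0.00910), and it was the only member called, against 20.6% of all genes called lower. This call was lost in every fit that left out 1 control library and with DESeq2's size factors, where the median of all genes moved from -0.13 to 0.004. The median over the members was -0.70, and -0.58 with those factors. With the TMM scaling the intervals of B9d2, Mks1, Cc2d2a, Cep290 and Tmem67 included 0. Sorted cells and whole epidermis differ in stage, isolation and sequencing instrument, which cannot be told apart here.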

How the data were processed

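Poly(A) RNA was sequenced as paired reads with a directional kit. The methods name HISAT2 for the alignment to mm10, while the submitters' processing notes name TopHat2, and HTSeq for counting. The values that the authors deposited are raw counts per gene symbol, one file per library, and the annotation and strand setting used are not given in the sources used here. Reads that the counting assigned to no single gene (21.1% to 26.0% of a library's counts) stayed out of sizes and tests. Of 23432 symbols, 98.3% were matched to GENCODE M21, from which coordinates and exon lengths came. The 2 samples of a group differed by more than sampling noise.

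edgeR 4.0.16 was run under R 4.3.3 (filterByExpr, TMM factors, quasi-likelihood test, Benjamini-Hochberg adjustment over all genes tested), each experiment alone. A fit over all 8 libraries gave the difference of effects and the levels across groups. Calls needed an adjusted p no higher than 0.01 and a fold exceeding 1.5, and for the difference of effects the adjusted p alone. CPM per kb divides CPM by the union of annotated exons. In counts simulated for the MOF comparison over 13650 genes, 80.8% of genes changed 4-fold and 44.4% of those changed 2-fold were recovered, with 3 false calls. For the Kansl1 comparison, over 12836 genes, these were 80.4% and 16.2%, with 4 false calls. Each simulation changed 200 genes, up or down, and drew counts with dispersions estimated from the same libraries. The data differed from that setting, with 1338 genes called down and 1395 up in MOF cKO and 0 called in Kansl1 cKO. The shares recovered therefore need not hold for the members. Alternatives were DESeq2 1.42.0, other scalings and filters, an adjusted p of 0.05, the replicate number as a block, a fit over all 8 libraries, and leaving out each library. A crossed block was added after seeing the data.

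The members and lists were chosen with earlier results of these data known. All members, the targeted genes and the opposite-strand partners within 1000 bases were named, and in each list up to 4 called genes with the largest change and any gene not tested. Some results under this rule are not reported here. Iqcb1, Smo, Rfx2, Rfx3, Trp63, Itgb4, Krt14, Tekt1 and, at P0.5, Tmem237 were named after their values were seen. Of the marker lists, Flg, Dnah5, Dnah9 and Mcidas were not matched in the files. Cep83 is listed as Ccdc41.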

Additional observations from a re-analysis of the deposited data

Results flagged for a closer look

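The MOF and Kansl1 effects on B9d1 differed by a log2 value of -4.32 in the test of the difference itself. B9d1 was at 11.6 and 12.9 CPM in the E16.5 controls and at 0.803 and 0.635 CPM in MOF cKO, while at P0.5 it was at 4.01 and 6.14 CPM in the controls and at 7.56 and 4.19 CPM in Kansl1 cKO. Over the alternatives, including each library left out, the difference lay between -4.70 and -3.82, with adjusted p between 2.21e-09 and 0.0285. With 2 libraries a group, no test for an outlying value within a group was run.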

How the results depend on the processing

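In MOF cKO the count of 7 called transition zone genes ranged from 5 to 8 over all alternatives, and B9d1, B9d2, Rpgrip1l, Tctn2 and Tmem67 were called in each of them. It was 5 to 7 with 1 library left out, where a lone library is assumed to vary like the other group. The count was 8 with library size alone, which adds Cc2d2a and moves the median of all genes to -0.32 and that of the members to -2.09. The 13 called genes of the other ciliary lists ranged from 11 to 17. In Kansl1 cKO the count of 0 became 1 (Mks1, adjusted p = 0.00506) without the filter on low counts.

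The count of 1 for the difference of effects became 3 at an adjusted p of 0.05, 3 with DESeq2, 3 without the filter, 2 with library size alone and 0 with the replicate block, and ranged from 0 to 3 with 1 library left out (3 without P0.5 control replicate 2). The count of 1 between the controls became 4 at an adjusted p of 0.05, 0 with DESeq2, 0 with RLE factors, 3 with library size alone, 2 without the filter and 0 with the 4 control libraries alone, and 0 to 1 with 1 library left out, the 1 being Rpgrip1l. With 1 library left out, the Kansl1 log2 fold change ranged from -0.33 to 0.56 for B9d1 and from -0.090 to 0.48 for Tctn1. The difference of effects for Mks1 was -0.086 with library size alone and ranged from -0.18 to 0.62 with 1 library left out. Between the controls, Cc2d2a ranged from -0.88 to 0.19 with 1 library left out. Tmem67 was at 0.10 with DESeq2, 0.10 with RLE factors, 0.068 without the filter and 0.091 with the 4 control libraries alone, and ranged from -0.25 to 0.15 with 1 library left out. The causes were not tested.

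Over all genes in MOF cKO, 1338 fell and 1395 rose. These were 2743 and 769 with library size alone, 2197 and 1837 without the filter, 2263 and 1903 with the replicate block, and 2296 and 1943 at an adjusted p of 0.05. The split also moved to 1551 and 1213 with upper-quartile factors. In Kansl1 cKO the 0 calls became 117 down and 73 up without the filter, 66 and 35 with DESeq2, and up to 197 and 76 with 1 library left out (Kansl1 cKO replicate 2). For the difference of effects the 426 calls, 170 lower and 256 higher, became 520 and 976 with DESeq2, 539 and 1112 without the filter, 985 and 1027 at an adjusted p of 0.05, 245 and 219 with library size alone, down to 12 and 69 with 1 library left out (P0.5 control replicate 1), and 0 and 1 with the replicate block. Between the controls, 2997 lower and 2854 higher became 4375 and 2144 with library size alone, 2490 and 3191 with RLE factors, and 1543 and 2209 without E16.5 control replicate 2.

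The methods describe pairs of samples with littermate controls, but neither they nor the labels tie the replicate numbers to litters. The deviations of same-numbered libraries correlated at 0.21 in the MOF and at -0.20 in the Kansl1 experiment, over 2 pairs each. With the replicate block 7 transition zone genes were called in MOF cKO and 0 in Kansl1 cKO. The crossed block for Kansl1, chosen after seeing the data, also called 0 of the 10 and 1 gene in all. Low counts limit single values in both experiments: Tmem67 had 9 and 39 counts in MOF cKO, and Tctn3 had between 20 and 70 at P0.5.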
